A study of Mus musculus with 23 samples.

Results

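The response to oxaliplatin was compared between subcutaneous white fat and hypothalamus of C57BL/6 mice. For every gene the oxaliplatin effect in fat (oxaliplatin minus vehicle, log2) was set against the same effect in hypothalamus, and the quantity reported is fat minus hypothalamus. The comparison used 14 of the 23 libraries of the series, all made with a ribosomal RNA depletion kit: in each tissue 4 from mice given 10 mg/kg oxaliplatin (mice 2, 3, 4 and 5) and 3 from vehicle mice (mice 1, 2 and 4), collected after 8 weeks. The remaining 9 libraries are from muscle, were made with another kit and do not enter. No transgene, deletion or second agent is named in the labels, which give no age or sex. The titles carry the same mouse numbers in both tissues of an arm, which were read as the same animal. Genes were joined on symbol: 22868 symbols stood in both tables and 16373 passed the filter on low counts in each tissue, and these were tested.

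Oxaliplatin is a platinum drug whose DNA adducts block replication and transcription. It is known for neuropathy and for damage to the small vessels of the liver, and little of it passes the blood-brain barrier. White fat is built of adipocytes, vessel cells, fibroblast-like progenitors, immune cells and the endings of sympathetic nerves. The hypothalamus is neural tissue whose capillary endothelium forms a barrier over most of its extent, and it controls feeding, temperature and the hormonal stress response.

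Library totals were 16458523 to 22748362 counts in fat and 23553612 to 28529269 in hypothalamus, where every oxaliplatin library (up to 26426309) was smaller than every vehicle library (27345593 or more). The tissue labels held: the adipocyte hormone Adipoq stood at 721 to 1279.6 CPM (counts scaled to 1e+06 in all per library) in fat and at 0.4 CPM or less in hypothalamus, and the synaptic gene Snap25 at 662 to 933 CPM in hypothalamus and at 2.5 CPM or less in fat. The fat library of vehicle mouse 4 held skeletal muscle RNA, with 125226 CPM summed over 20 muscle markers against 55.3 CPM in the lowest vehicle library and 593 to 4494 CPM under oxaliplatin. Oxaliplatin mouse 5 stood apart in both tissues. Its fat library was the oxaliplatin library nearest to the vehicle mean for 8213 of 16373 genes (50.2%), against 14.3% to 19.7% for the other 3 mice. Its hypothalamus library was nearest for 7125 genes (43.5%), against 15.2% to 20.9%. The labels of this mouse disagree in muscle, where the title names oxaliplatin and the treatment field vehicle, and agree on oxaliplatin in fat and hypothalamus. Results are therefore given with all 14 libraries, and counts and many single genes also without both libraries of mouse 5, a choice made after the values were seen. Leaving out the oxaliplatin mouse nearest to vehicle tends to enlarge effects and counts in itself. Results without mouse 5 are thus no independent support for those with all libraries. These are bulk tissues, so more or fewer cells of a type and more or less RNA per cell cannot be told apart.

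The effect differed between fat and hypothalamus for 149 of the 16373 genes (0.910%) at an adjusted p under 0.05 (edgeR quasi-likelihood test, Benjamini-Hochberg). In 52 genes (0.318%) the fat effect was the higher and in 97 (0.592%) the lower. With upper quartile scaling the split was 52 and 63. The fat effect was the larger in size for 129 of the 149, of which 81 lay below vehicle in fat and 48 above. In 82 of the 149 the hypothalamus effect lay within 0.25 of 0 on the log2 scale, while the fat effect did so in 6. The hypothalamus effect was the larger for 20 genes, 16 of them above vehicle there. For 22 genes the signs were opposite with a size of at least 0.5 in each tissue. Fat minus hypothalamus within each mouse did not overlap between the 4 oxaliplatin and 3 vehicle mice for all 149, which was also so for 18.4% of all genes tested. Within a tissue, the arms did not overlap for 3698 genes in fat (22.6%) and 1703 in hypothalamus (10.4%).

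**Figure D1:**
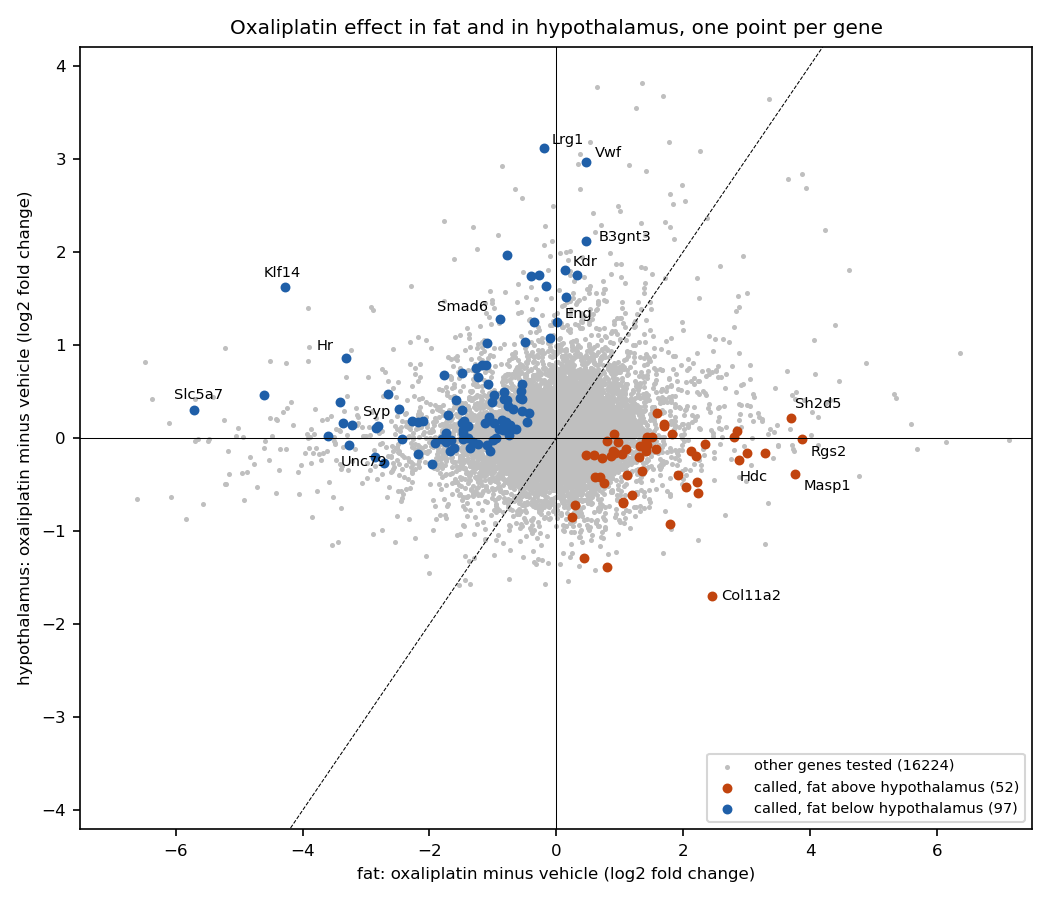
Oxaliplatin effect (log2, oxaliplatin over vehicle) of each gene in fat (horizontal) and hypothalamus (vertical), each from the fit of its own tissue. Of the genes whose effects differed, 52 with the higher effect in fat are orange and 97 with the lower are blue, most of them spread along the horizontal axis, and the dashed line marks equal effects (7 genes lie outside the axes).

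The spread of effects was wider in fat, where their standard deviation over genes was 0.80 on the log2 scale against 0.37 in hypothalamus. Across the 16373 genes, which are not independent replicates, the effects correlated with Pearson r of 0.14 and Spearman rho of 0.14. Libraries of fat were also more variable (chi-square per degree of freedom between 2 libraries of an arm 22.7 to 201, against 6.84 to 80.6 in hypothalamus). Fitted alone, fat gave 0 calls, with a smallest adjusted p of 0.0556 (edgeR). At an unadjusted p under 0.05 stood 4457 genes in fat and 1793 in hypothalamus. As none passed, no fat effect with all libraries is called a rise or fall here. In the joint fit of both tissues, which gave the difference, the fat effect had 3043 calls (18.6%). That fit uses the same measure of spread for both tissues. Where fat varies more, p values of the fat effect in that fit can be too small. In limma-voom, a weight per tissue took the calls of the fat effect from 2723 to 1603. Those of the difference went from 196 to 303. The fit of hypothalamus alone gave 32 calls, all rises (0.195%). The fat effect of these 32 had a median of 0.33 against 1.40 in hypothalamus, and 10 of them also passed the test of the difference. With the animal as a block, 0 genes passed (3323 at an unadjusted p under 0.05, smallest adjusted p 0.0543). All 149 kept their sign there, with unadjusted p up to 0.00601. Each mouse has a library of both tissues, so the blocked fit estimates nearly the same difference from the same libraries. The kept signs are thus no separate support. Leaving out mouse 5 gave 3192 genes (19.8%) that differed, 1343 higher in fat (8.33%) and 1849 lower (11.5%), among them all 149. With that mouse left out and the animal as a block, 2495 genes differed (15.5%), again with all 149 among them. Each tissue alone then gave calls: 2196 genes rose (13.4%) and 2336 fell (14.3%) in fat, and 436 rose (2.66%) and 268 fell (1.64%) in hypothalamus.

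The count of 149 depended on single libraries. Without hypothalamus vehicle mouse 1, 2 or 4 it was 2, 2 and 1, and without hypothalamus oxaliplatin mouse 2, 3, 4 or 5 it was 69, 26, 22 and 216. Without fat vehicle mouse 1, 2 or 4 it was 29, 97 and 90, and without fat oxaliplatin mouse 2, 3, 4 or 5 it was 128, 31, 44 and 3186. The count of 32 in the fit of hypothalamus alone became 2, 1 and 0 without vehicle mouse 1, 2 or 4, and 32, 9, 4 and 704 without oxaliplatin mouse 2, 3, 4 or 5.

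Among the genes whose hypothalamus effect was the larger were many of the vessel wall. Lrg1, a secreted glycoprotein of the acute phase that modulates transforming growth factor beta signalling in endothelium (chr17:56119678-56122001, minus strand, GRCm38), stood at 0.438, 1.03 and 0.471 CPM in the hypothalamus of vehicle mice 1, 2 and 4. Under oxaliplatin it stood at 6.07, 6.24, 5.28 and 4.91 CPM in mice 2, 3, 4 and 5, the order kept for every gene here. The groups did not overlap, and mouse 5 was the lowest of its group but far above vehicle. In fat it stood at 213, 299 and 318 CPM in vehicle and 269, 167, 247 and 281 CPM in oxaliplatin libraries, which overlapped. The effect was 3.11 ± 0.30 (SE, log2, 4 against 3 mice) in hypothalamus and -0.20 ± 0.23 in fat, a difference of -3.31 ± 0.38 (adjusted p = 0.00671, edgeR). Of 14 fits that each left out 1 library, 13 kept this call.

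Eng (endoglin), a co-receptor for ligands of the transforming growth factor beta family on endothelial cells, lies at chr2:32646595-32682669. Its hypothalamus libraries stood at 25.4, 27.4 and 25.7 CPM in vehicle and 58.9, 73.5, 61.9 and 53.4 CPM in oxaliplatin mice, with no overlap. In fat the values were 162, 147 and 151 CPM and 149.5, 155, 145 and 168 CPM, an overlapping range. It rose by 1.24 in hypothalamus (adjusted p = 0.00485, edgeR) and had an effect of 0.00 ± 0.11 in fat, and the difference was -1.24 ± 0.15 (adjusted p = 0.0106). Acvrl1, a signalling receptor that works together with endoglin, differed by -1.53 ± 0.25 (adjusted p = 0.0212), with 1.04 in hypothalamus and -0.49 in fat. Smad6, an intracellular inhibitor of bone morphogenetic protein signalling, lay below vehicle in fat and above it in hypothalamus. Its CPM in fat was 32.4, 42.9 and 35.5 in vehicle and 24.7, 20.7, 16.4 and 17.9 in oxaliplatin libraries, all of the latter lower. In hypothalamus it was 4.3, 5.48 and 5.54 and 13, 16.5, 12 and 7.94 CPM, all oxaliplatin libraries higher, and the difference was -2.17 ± 0.31 (adjusted p = 0.0163, edgeR). Neither tissue effect of Smad6 passed alone with all libraries, and both passed without mouse 5, at -0.84 in fat (adjusted p = 0.0155) and 1.43 in hypothalamus (adjusted p = 0.00378).

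Vwf, the clotting glycoprotein stored by endothelial cells, stood at 30.9, 29.1 and 36 CPM in hypothalamus of vehicle mice and at 267, 330.4, 268 and 137 CPM under oxaliplatin. All 4 oxaliplatin libraries were above vehicle, mouse 5 least. In fat it stood at 138, 158 and 125 CPM and 216, 226, 159 and 176 CPM, also without overlap but much closer together. Its effect of 2.97 in hypothalamus exceeded that of 0.47 in fat, and fat minus hypothalamus was -2.50 ± 0.34 (adjusted p = 0.0152, edgeR). Kdr, the main receptor for vascular endothelial growth factor, stood at 13.1, 16.8 and 19.2 CPM and 61.3, 76.7, 54 and 36.3 CPM in hypothalamus, again with mouse 5 nearest to vehicle. Fat values of Kdr overlapped, at 195, 158 and 141 and 204, 198, 141 and 177 CPM, and the difference was -1.67 ± 0.32 (adjusted p = 0.0424). Robo4, a receptor that stabilises vessels, had a smaller difference of -1.17 ± 0.22 (adjusted p = 0.0373). Adgrl4, an adhesion receptor of endothelium, differed by -1.43. Cd300lg, an endothelial surface receptor, differed by -2.02 although its hypothalamus effect of 1.75 did not pass alone (adjusted p = 0.239). Its hypothalamus level was low, at 0.146, 0.153 and 0.196 CPM in vehicle and 0.598, 0.567, 0.696 and 0.395 CPM under oxaliplatin. The fold therefore rests on few reads.

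Other genes of this kind had the same form. B3gnt3, a glycosyltransferase that takes part in making leukocyte adhesion ligands, rose by 2.12 in hypothalamus against 0.47 in fat (difference -1.64 ± 0.27, adjusted p = 0.0212, edgeR). Ly6a and Ly6c1, lipid-anchored surface proteins, rose by 1.74 and 1.52 in hypothalamus, and the differences were -2.14 and -1.37. Both belong to a family of similar neighbouring genes, between which reads may have been split. Adamts1, a secreted protease of the vessel matrix, differed by -1.80 ± 0.35 (adjusted p = 0.0424). The calls of Kdr, Robo4, Adgrl4, Ly6c1, Ly6a and Adamts1 were kept in only 2 to 4 of the 14 fits that left out 1 library. Without mouse 5 each of these 6 passed with the same sign.

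Of 25 endothelial marker genes, 5 differed between tissues (Kdr, Eng, Vwf, Robo4 and Ly6c1), all lower in fat than hypothalamus (0.592% of all genes), and 7 rose in the fit of hypothalamus alone (0.195% of all genes), the others being Pecam1 and Flt1. The median effect was 0.82 in hypothalamus and 0.20 in fat, and the median difference was -0.69, against -0.01 over all genes tested. The mean level of the list over vehicle was 0.90, 0.95, 0.94 and 0.62 (log2) in the hypothalamus of oxaliplatin mice 2, 3, 4 and 5, against -0.10 to 0.06 in vehicle. In fat it was 0.08 to 0.17 against -0.23 to 0.18, so that the arms overlapped. Summed over the 25 markers, plain CPM in hypothalamus were 371 to 391 in vehicle and 694 to 1142 in oxaliplatin libraries. The same sum in fat was 1483 to 2253 in vehicle and 2471 to 2935 in oxaliplatin libraries, all of the latter higher. Such sums use plain library totals and weigh abundant markers most. The list level uses TMM scaling and weighs markers alike, and in fat it overlapped, so the separation in fat depends on the measure. Whether a larger endothelial share of the RNA goes with the single genes was not tested. The list is not independent of the named genes, since 5 of them are its members. Without mouse 5, of 24 tested members 12 differed downward and 1 upward, and 15 rose in hypothalamus. Over all genes the shares were 11.5%, 8.33% and 2.66%.

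With all libraries, other vessel genes did not pass the test of the difference. Pecam1, an adhesion protein of endothelial junctions, had an effect of 1.48 in hypothalamus and 0.75 in fat, and the difference of -0.73 ± 0.27 did not pass (adjusted p = 0.153, edgeR). Flt1, a further receptor for vascular endothelial growth factor, gave -0.87 ± 0.35 (adjusted p = 0.174). Vegfa, the growth factor itself, rose by 1.29 in hypothalamus and stood at 0.97 in fat, with an interval of the difference from -1.41 to 0.77 that includes 0. Acer2, a ceramidase, rose by 2.87 in hypothalamus, and its difference was -1.45 ± 0.46 (adjusted p = 0.114). Cxcl12, a chemokine of vessel and stromal cells, rose by 1.31 and had a difference of -0.92 ± 0.26 (adjusted p = 0.0904). Without mouse 5, Pecam1 (-0.78 ± 0.20, adjusted p = 0.0197), Acer2 (-1.36 ± 0.36, adjusted p = 0.0233) and Cxcl12 (-1.04 ± 0.25, adjusted p = 0.0133) passed, and Flt1 and Vegfa did not (adjusted p = 0.0644 and 0.882, edgeR).

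**Figure D2:**
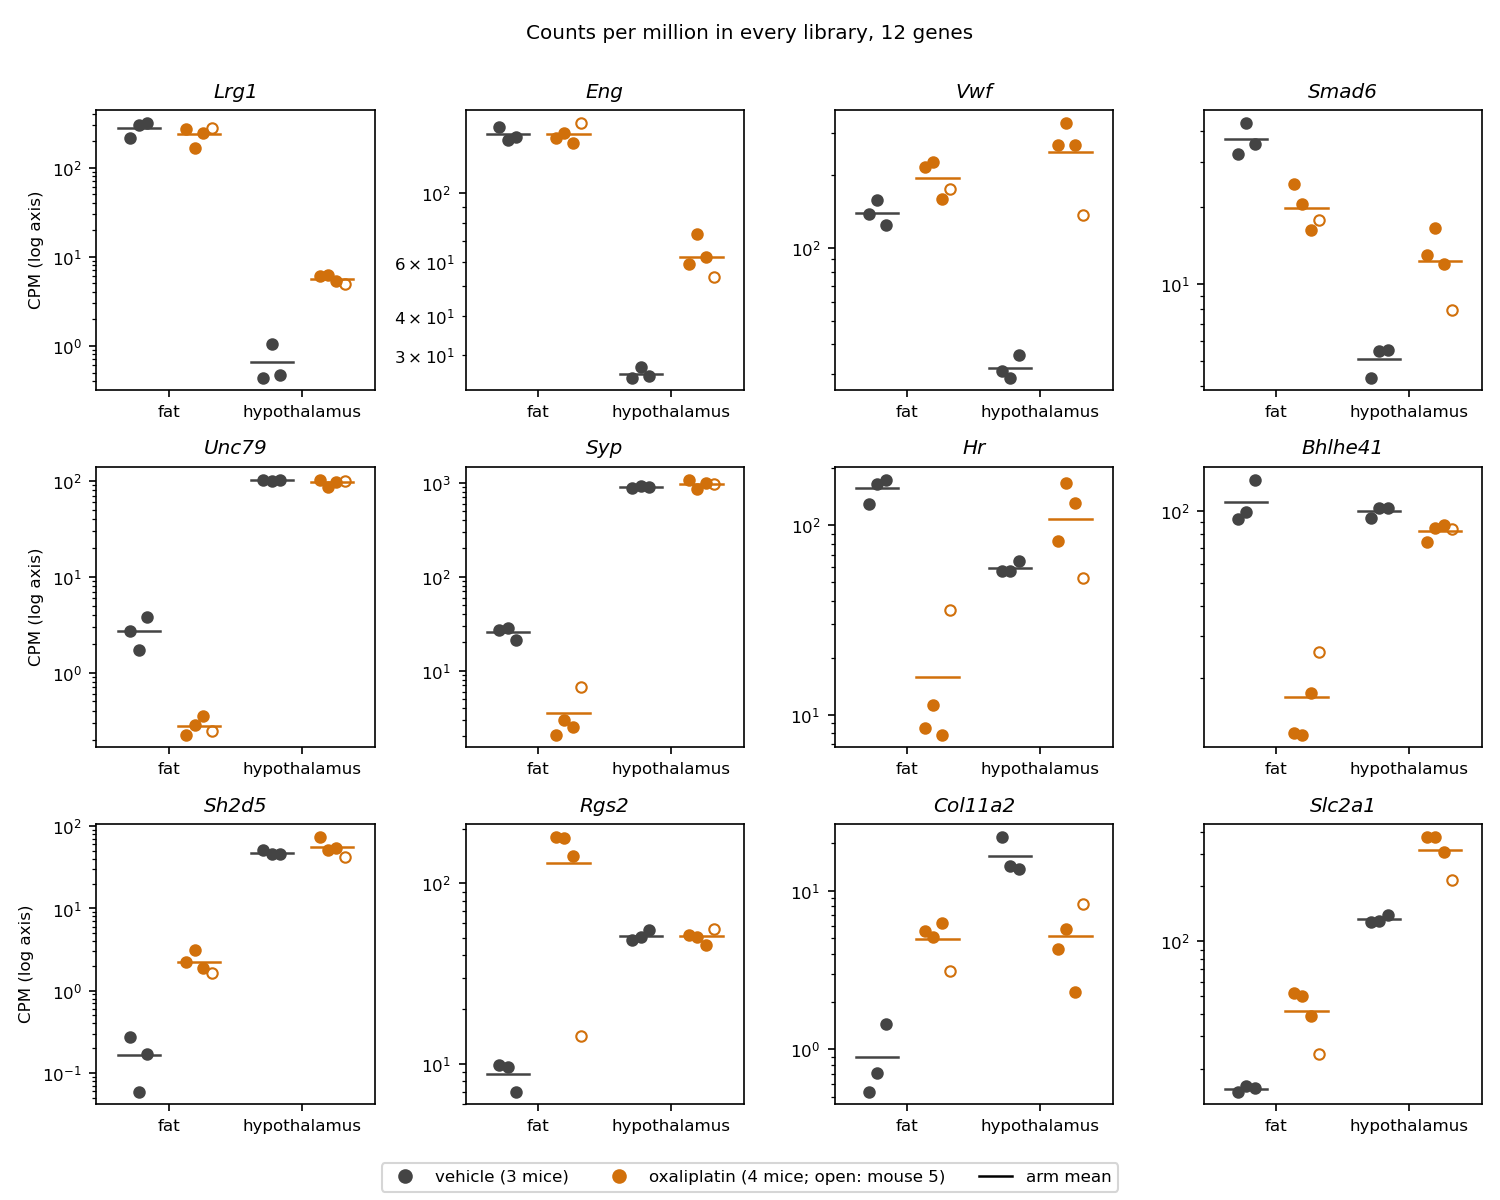
Level of 12 genes in each library, in CPM on a log axis, by tissue and arm, with oxaliplatin mouse 5 as an open circle and the arm mean as a line. Lrg1, Eng and Vwf separate the arms widely in hypothalamus and little or not at all in fat, while Unc79, Syp, Hr and Bhlhe41 do so downward in fat.

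The larger group was of genes that were lower in fat under oxaliplatin, and among it were genes best known from nerve cells, brought together here after their values were seen. Unc79, a subunit of the sodium leak channel complex that sets the resting potential of neurons (chr12:102948859-103184065, plus strand), had the smallest p of all genes. Its fat libraries stood at 2.7, 1.71 and 3.84 CPM in vehicle and 0.225, 0.285, 0.354 and 0.244 CPM in oxaliplatin mice, all of the latter lower, mouse 5 included. In hypothalamus, scaled separately, it stood at 103, 101 and 103 CPM and 102, 87.1, 97.4 and 99.7 CPM, which overlapped. The effect was -3.27 ± 0.37 in fat (adjusted p = 0.0606 alone) and -0.08 ± 0.08 in hypothalamus, a difference of -3.20 ± 0.32 (adjusted p = 0.00319, edgeR). It was called in all 14 fits that left out 1 library. The fat level is low, so its fold rests on few reads.

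Syp (synaptophysin), a membrane protein of synaptic vesicles, stood at 27.2, 28.4 and 21.2 CPM in fat of vehicle mice and at 2.08, 3.02, 2.53 and 6.65 CPM under oxaliplatin. The groups were far apart, with mouse 5 the highest of the oxaliplatin libraries. In hypothalamus it stood at 878, 922 and 909.5 CPM and 1077, 857, 989 and 961 CPM, overlapping, and the difference was -2.95 ± 0.42 (adjusted p = 0.0152, edgeR). Slc5a7, the high-affinity choline transporter of cholinergic endings, stood at 2.43, 4.32 and 5.16 CPM in fat of vehicle mice and at 0, 0, 0.202 and 0.061 CPM under oxaliplatin, with 2 libraries at 0, and overlapped between arms in hypothalamus, at 2.37, 2.99 and 2.08 and 5.47, 1.7, 2.25 and 2.85 CPM. The fitted difference of -6.03 ± 0.86 (adjusted p = 0.0152) depends on the prior count, since the oxaliplatin level is close to the floor. Plppr4, a neuronal membrane protein of the postsynapse, stood at 9.19, 5.38 and 3.96 CPM and 0, 0.057, 0.0505 and 0.914 CPM in fat, where mouse 5 lay above the rest of its arm, and differed by -5.10 ± 0.91 (adjusted p = 0.0323).

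More genes of synapse, axon and channel had the same form, with hypothalamus effects between -0.07 and 0.18. They were Golga7b, a partner of palmitoyltransferases (difference -3.64 ± 0.56), Sez6l (-3.54 ± 0.63), Ppfia3, a scaffold of the presynaptic active zone (-2.41 ± 0.36), and Fgf13, an intracellular modulator of sodium channels (-2.28 ± 0.40). Smaller differences were found for Srcin1, an adaptor that restrains SRC kinase (-1.80 ± 0.28), Gnao1, a G protein subunit abundant in neurons (-1.65 ± 0.25), and Map6, a stabiliser of microtubules (-1.02 ± 0.17). S100b, a calcium-binding protein of glia that adipocytes also make, differed by -1.56 ± 0.33 (adjusted p = 0.0486, edgeR), kept in 2 of 14 fits without 1 library. Lists of neural genes held few or none of the calls with all libraries. Of 20 ion channel and synaptic scaffold genes, 1 differed downward (Unc79) and 1 upward (Sh2d5), with a median difference of -0.51. Without mouse 5, 5 of these 20 differed downward and 1 upward (median -0.62), beside 11.5% and 8.33% of all genes. Of 15 neuron markers, 0 differed and the median was 0.09, beside -0.01 over all genes. The neuron median was -0.45 without mouse 5, when 4 of 14 differed downward and 2 upward. Snap25, the vesicle fusion protein, had the opposite sign in fat (3.69) and its difference of 3.61 ± 1.12 did not pass (adjusted p = 0.111), which it did without mouse 5 (4.03 ± 0.54, adjusted p = 0.000714). Markers of neurons summed to 72.8 to 218 CPM in vehicle and 35.9 to 151 CPM in oxaliplatin fat, and those of Schwann cells to 537 to 686 and 450 to 602 CPM. Without mouse 5, the fat effect of each gene named above from Unc79 to S100b passed as a fall in the fit of fat alone. Whether the nerve content of the fat pieces goes with these genes was not tested.

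A pair of circadian clock genes also differed. The clock is a feedback loop in which the activators CLOCK and BMAL (gene Arntl) bind E-box letters CACGTG and drive their own repressors, among them Bhlhe41, Bhlhe40 and Ciart. The RefSeq promoter sequences (GRCm38.p6) of the called clock genes are shown because both hold that motif, in capitals, 5′ to 3′ on the minus strand. The stretches end where the gene body of the annotation begins, at chr3:95882252-95882478 for Ciart and chr6:145865559-145865670 for Bhlhe41.
Ciart: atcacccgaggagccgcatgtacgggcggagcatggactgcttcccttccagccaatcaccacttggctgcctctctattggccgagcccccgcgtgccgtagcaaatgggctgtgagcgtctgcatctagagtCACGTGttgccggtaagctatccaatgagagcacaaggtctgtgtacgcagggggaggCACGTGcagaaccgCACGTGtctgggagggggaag
Bhlhe41: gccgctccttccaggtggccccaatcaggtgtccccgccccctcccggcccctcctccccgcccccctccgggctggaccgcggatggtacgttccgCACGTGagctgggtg
The Ciart stretch held 3 such motifs, at 116, 58 and 44 bases before the RefSeq start, and that of Bhlhe41 1, at 153 bases. The palindrome CACGTG (the same on both strands) stood in 6.86% of 27025 promoters, counted over 250 bases before each start, in 9.59% of those of tested genes and in 12% (14 of 117) of those of called genes. By direction it was 18.4% (7 of 38) for genes higher in fat and 8.86% (7 of 79) for genes lower. A match describes letters and no binding.

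Bhlhe41 stood at 93.1, 99.1 and 135 CPM in fat of vehicle mice and at 11.8, 11.6, 17.3 and 25.7 CPM under oxaliplatin, with no overlap and mouse 5 nearest to vehicle. In hypothalamus it was 93.7, 103 and 103 and 74.3, 85, 87.4 and 84.5 CPM, slightly lower in all 4 oxaliplatin libraries. The difference was -2.45 ± 0.33 (adjusted p = 0.0152, edgeR). Ciart stood at 14.7, 11.1 and 16.5 CPM and 5.46, 4.78, 5.26 and 5.97 CPM in fat, the latter all lower and close together, and at 14.4, 10.0 and 11.5 and 16.4, 13, 12.4 and 10.7 CPM in hypothalamus, overlapping. Its difference was -1.52 ± 0.26 (adjusted p = 0.028). Bhlhe40 gave -1.22 ± 0.26 and just missed the threshold (adjusted p = 0.0507, and 0.0109 without mouse 5), and the activator Arntl gave 2.72 ± 0.62 (adjusted p = 0.0565) with the opposite sign.

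Of 20 clock genes, 2 differed, both lower in fat (0.592% of all genes), and the median difference was -0.35. Without mouse 5, 9 differed downward and 4 upward (11.5% and 8.33% of all genes). Among the former were Dbp, a clock output factor (-2.47 ± 0.33), and Nr1d1, a repressor of Arntl, and among the latter Arntl itself (2.99 ± 0.40), Npas2, a paralogue of CLOCK (3.20 ± 0.66), and Nfil3, a repressor opposed to Dbp (3.04 ± 0.35). With all libraries the fat effects of these 5 were -2.51, -1.21, 2.84, 4.07 and 3.00, and those in hypothalamus -0.84, -0.46, 0.11, 1.05 and 0.36. No label gives the hour of collection, and its part was not tested.

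Further genes were lower in fat. Hr (hairless), a nuclear corepressor responsive to thyroid hormone, stood at 129, 165 and 174 CPM in fat of vehicle mice and at 8.45, 11.2, 7.83 and 35.5 CPM under oxaliplatin, where mouse 5 was the highest of its arm and still below vehicle. In hypothalamus its values of 57.2, 57.5 and 64.5 and 82.4, 168, 130.4 and 52.9 CPM overlapped through mouse 5. The difference was -4.17 ± 0.71 (adjusted p = 0.028, edgeR), and without mouse 5 -5.17 ± 0.34 (adjusted p = 1.19e-05). Adrb1, a receptor for noradrenaline that triggers lipolysis, stood at 21.8, 8.98 and 33.8 CPM and 0.62, 1.48, 1.52 and 4.51 CPM in fat, apart but widely spread in vehicle, and differed by -3.81 ± 0.74.

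Fgf1, a growth factor of adipose remodelling, differed by -1.68 ± 0.25 (adjusted p = 0.0164), and Fam20c, the kinase of secreted proteins, by -2.65 ± 0.45 (adjusted p = 0.028). The matrix proteins Crtac1 and Matn4 differed by -3.36 ± 0.68 and -2.95 ± 0.59. Ndufb8, a subunit of respiratory complex I, differed by -0.95 ± 0.19 and was the only called member of 34 respiratory chain genes, of which 32 had a difference below 0 (median -0.37). Without mouse 5, 6 of the 34 differed downward and 0 upward, and 15 fell in the fit of fat alone. Over all genes the shares were 11.5%, 8.33% and 14.3%. Ldha, lactate dehydrogenase, differed by -1.95 ± 0.41 (adjusted p = 0.0484), but its vehicle fat values of 565, 411 and 1145 CPM were highest in mouse 4, whose library held muscle RNA, a part that was not tested. The calls of Adrb1, Crtac1, Matn4, Ndufb8 and Ldha were kept in only 2 to 4 of the 14 fits that left out 1 library. Those of Fam20c, Hr and Fgf1 were kept in 6, 7 and 11. The fat effects of Hr, Adrb1, Fgf1, Fam20c, Crtac1, Matn4, Ndufb8 and Ldha, like those of Bhlhe41 and Ciart, passed as falls in the fit of fat alone without mouse 5.

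**Figure D3:**
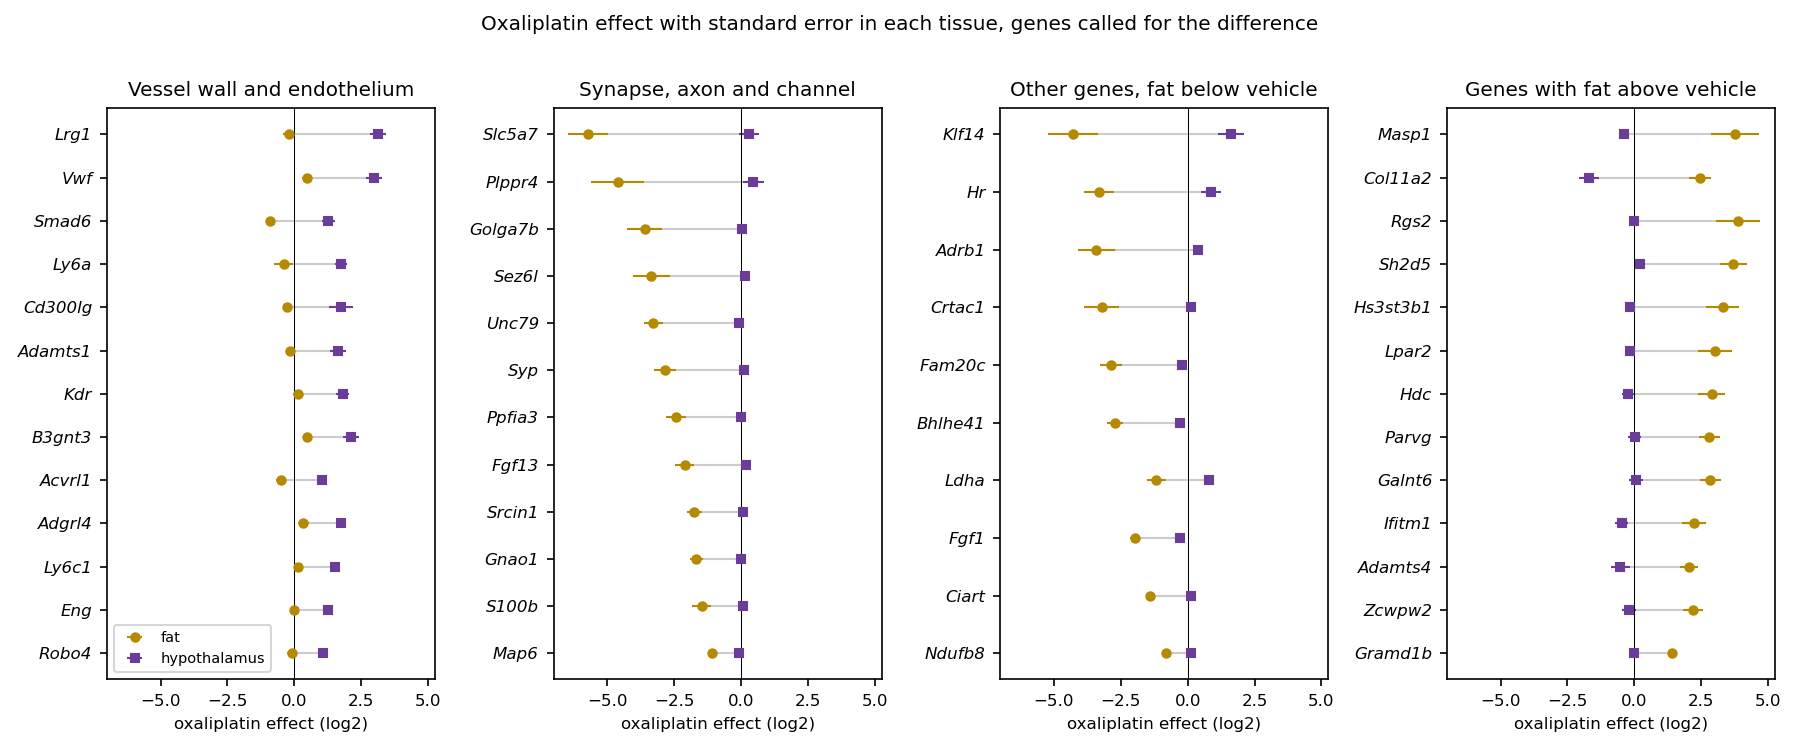
Oxaliplatin effect (log2, with SE) in fat and in hypothalamus for the named genes, in 4 panels. In the vessel panel the hypothalamus points lie right of 0 and of the fat points, in the synapse panel fat points lie left and hypothalamus points near 0, and in the last panel fat points lie right.

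Among the 52 genes with the higher effect in fat, Sh2d5, an adaptor protein best known from neurons (chr4:138250403-138261332, plus strand), had a fat level of 0.27, 0.0591 and 0.172 CPM in vehicle and 2.25, 3.13, 1.87 and 1.65 CPM in oxaliplatin libraries. The arms were far apart, and mouse 5 was the lowest of its arm. In hypothalamus it stood at 51, 46.6 and 45.9 CPM and 74.5, 51.4, 54 and 42.2 CPM, overlapping, and the difference was 3.51 ± 0.47 (adjusted p = 0.0152, edgeR), kept in 11 of 14 fits without 1 library. The vehicle level in fat was near the detection floor. Rgs2, a brake on G protein signalling, stood at 9.86, 9.58 and 6.99 CPM and 182, 178, 142 and 14.2 CPM in fat, where 3 libraries were far above vehicle and mouse 5 only just above it. Its hypothalamus values of 48.6, 50.3 and 55 and 52, 50.2, 45.7 and 55.9 CPM overlapped. The difference of 3.88 ± 0.79 (adjusted p = 0.046) was kept in 1 of the 14 fits and reached 4.31 ± 0.21 (adjusted p = 2.01e-06) without mouse 5. Masp1, a protease of the lectin pathway of complement, had the same form, at 2.23, 3.66 and 1.43 CPM and 62.3, 37.8, 29.6 and 3.9 CPM in fat (difference 4.15 ± 0.88, kept in 1 of 14).

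Hs3st3b1, an enzyme that sulfates heparan chains, stood at 7.29, 7.39 and 12.9 CPM in vehicle and 147, 123, 61.6 and 29.4 CPM in oxaliplatin fat, without overlap, and differed by 3.45 ± 0.62 (adjusted p = 0.0323, edgeR). Differences between 2.39 and 3.18 were found for Lpar2, a receptor for lysophosphatidic acid, Hdc, which makes histamine, Parvg, an adhesion adaptor of blood cells, Galnt6, which starts O-glycan chains, Ifitm1, an interferon-induced membrane protein with close paralogues, Adamts4, a protease of aggrecan, and Zcwpw2. Their hypothalamus effects ran from -0.53 to 0.07, and none passed there alone. Of 14 fits without 1 library, 3 kept the calls of Lpar2, Hdc, Ifitm1 and Adamts4, 5 that of Galnt6 and 8 those of Parvg and Zcwpw2. Lymphocyte markers varied in the same fat libraries: the list level was -1.88, 1.9, 2.2 and 3.85 (log2 over vehicle) in oxaliplatin mice 2, 3, 4 and 5, against -0.28 to 0.38 in vehicle, and its part in Parvg and Ifitm1 was not tested. Gramd1b, a sterol carrier at membrane contacts, differed by 1.44 ± 0.21 (adjusted p = 0.0164) and was kept in 11 of 14. Lepr, the leptin receptor, narrowly missed, at 1.94 ± 0.42 (adjusted p = 0.0517), and passed without mouse 5 at 2.05 ± 0.42 (adjusted p = 0.00719). Without mouse 5 the fat effects of Sh2d5, Rgs2, Masp1, Hs3st3b1, the genes from Lpar2 to Zcwpw2, Gramd1b and Lepr passed as rises in fat.

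Opposite signs in the tissues were found for Col11a2, a fibrillar collagen chain. It stood at 0.54, 0.709 and 1.43 CPM in vehicle and 5.58, 5.07, 6.22 and 3.11 CPM in oxaliplatin fat, all of the latter higher. In hypothalamus it stood at 21.9, 14.3 and 13.8 CPM and 4.32, 5.72, 2.29 and 8.29 CPM, all of the latter lower. The difference of 4.15 ± 0.61 (adjusted p = 0.0164, edgeR) was kept in 11 of 14 fits, and without mouse 5 both tissue effects passed, at 2.64 and -2.03. Genes below vehicle in fat and above it in hypothalamus included Fzd4, a receptor for Wnt ligands and norrin (-1.48 and 0.70), Plce1, a phospholipase C (-1.23 and 0.65), Palmd (-1.26 and 0.75) and Myl12a, a regulatory myosin light chain (-0.56 and 0.51). The calls of these 4 were kept in only 2 to 3 of the 14 fits that left out 1 library. Without mouse 5 both effects of each of these 4 passed. Klf14, a transcription factor of adipocytes, went from -4.28 in fat to 1.62 in hypothalamus. It stood in hypothalamus at 0.219, 0.268 and 0.275 CPM in vehicle and 1.2, 0.829, 0.778 and 0.351 CPM in oxaliplatin libraries. Oxaliplatin fat had 0.282, 0.057, 0 and 0.914 CPM. These levels are near the floor, so both folds of Klf14 rest on few reads. Lpcat2, an enzyme of platelet-activating factor synthesis, had the reverse signs, at 1.05 in fat and -0.69 in hypothalamus, and its call was kept in 3 of 14. Over all genes, 219 had opposite signs with a size of at least 0.5 in each tissue, and 453 had the same sign.

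Some genes had effects of the same sign in both tissues. Slc2a1, the glucose transporter of the barrier endothelium, stood at 14.9, 16.1 and 15.6 CPM in vehicle and 51.9, 50.2, 38.7 and 24 CPM in oxaliplatin fat. In hypothalamus it stood at 128, 129 and 139 CPM and 375, 373, 308 and 216 CPM. Both tissues had all oxaliplatin libraries above vehicle, and mouse 5 was the lowest in each. The effects were 1.41 ± 0.27 in fat and 1.27 ± 0.18 in hypothalamus, and the difference of 0.14 had a 95% interval of -0.61 to 0.89, which bounds it within less than 1 on the log2 scale. Tmem252 gave 2.23 and 1.72, and Nfkbia, the inhibitor of NF-kappa-B, 1.54 and 0.96. Cdkn1a, the cell cycle inhibitor induced by p53 and by glucocorticoids, gave 3.65 and 2.78 with an interval of the difference from -0.68 to 2.42, too wide to call the effects alike. Fkbp5, a chaperone of the glucocorticoid receptor, gave 2.83 and 1.37, Cebpd, a transcription factor of the acute phase, 2.02 and 2.55, and Lcn2, an iron-binding acute phase protein, 2.82 and 5.31. None of these 7 passed the test of the difference with all libraries, and without mouse 5 Nfkbia did (0.66 ± 0.17, adjusted p = 0.0213, edgeR).

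Glucocorticoid-responsive genes as a list were above vehicle in both tissues. Of 30 tested, 27 had an effect above 0 in fat and 30 in hypothalamus, with medians of 1.03 and 1.02 against 0.02 and 0.01 over all genes. The median difference was 0.12, and 1 member (Adamts1) passed the test of the difference. In the fit of hypothalamus alone, 3 rose. Without mouse 5, 18 were called higher and 1 lower in fat and 24 higher in hypothalamus, while 6 differed upward and 5 downward between tissues. Over all genes, 13.4% rose and 14.3% fell in fat and 2.66% rose in hypothalamus, while 8.33% differed upward and 11.5% downward. The list level over vehicle was 1.94, 1.65, 1.05 and 0.24 in fat of oxaliplatin mice 2, 3, 4 and 5, and 1.51, 1.60, 1.12 and 0.47 in hypothalamus. Mouse 5 was the lowest in both tissues, and in fat it lay below vehicle mouse 4, at 0.34.

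Several other lists had a median difference below 0. For 33 genes of the extracellular matrix, 0 differed with all libraries (median difference -0.68) while without mouse 5, 23 differed downward and 2 upward (median -1.75). Without mouse 5 the shares over all genes, which also apply to the next lists, were 11.5% downward and 8.33% upward. The fibroblast and preadipocyte list gave 2 of 19 (Ly6a and F3, tissue factor; median -0.93) with all libraries and 12 without mouse 5. Its level in fat was -2.48, -1.75, -1.80 and 0.30 over vehicle in oxaliplatin mice 2, 3, 4 and 5, so that mouse 5 lay on the other side of vehicle. Col4a1, a basement membrane collagen, rose by 1.34 in hypothalamus and was at -0.60 in fat. Mouse 5 stood at 2388 CPM in fat, above all vehicle libraries (1511 to 2163 CPM). The difference of Col4a1 did not pass (-1.94 ± 0.50, adjusted p = 0.0758, edgeR), and reached -2.63 ± 0.20 (adjusted p = 2.22e-05) without mouse 5. Adipocyte identity genes had a difference below 0 in 15 of 16 (median -1.02), with 0 called, and 8 lower and 1 higher without mouse 5. Plin4, a coat protein of lipid droplets that is also responsive to glucocorticoids, was at -1.25 in fat and 2.03 in hypothalamus (difference -3.28 ± 0.81, adjusted p = 0.0661), and without mouse 5 its difference passed at -3.98 ± 0.41 (adjusted p = 0.000147).

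Genes of fatty acid and triglyceride synthesis had a median difference of -0.80, with 0 of 25 called. Without mouse 5, 8 of them differed downward and 6 upward. The shares over all genes, which also apply to the next 2 lists, were 11.5% downward and 8.33% upward. Those of the unfolded protein and integrated stress response had a median of 0.54, with 0 of 26 called. Of these, 8 were higher and 1 lower in fat without mouse 5, with Creld2 (1.52 ± 0.24) and Asns, asparagine synthetase (1.45 ± 0.23), among the higher. Among 30 targets of p53, a factor activated by DNA damage, 0 differed with all libraries and the median difference was 0.31, and 8 differed upward and 3 downward without mouse 5. Trp53inp1 (3.56 ± 0.41) and Bax, an effector of apoptosis (0.65 ± 0.20), were among the former.

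**Figure D4:**
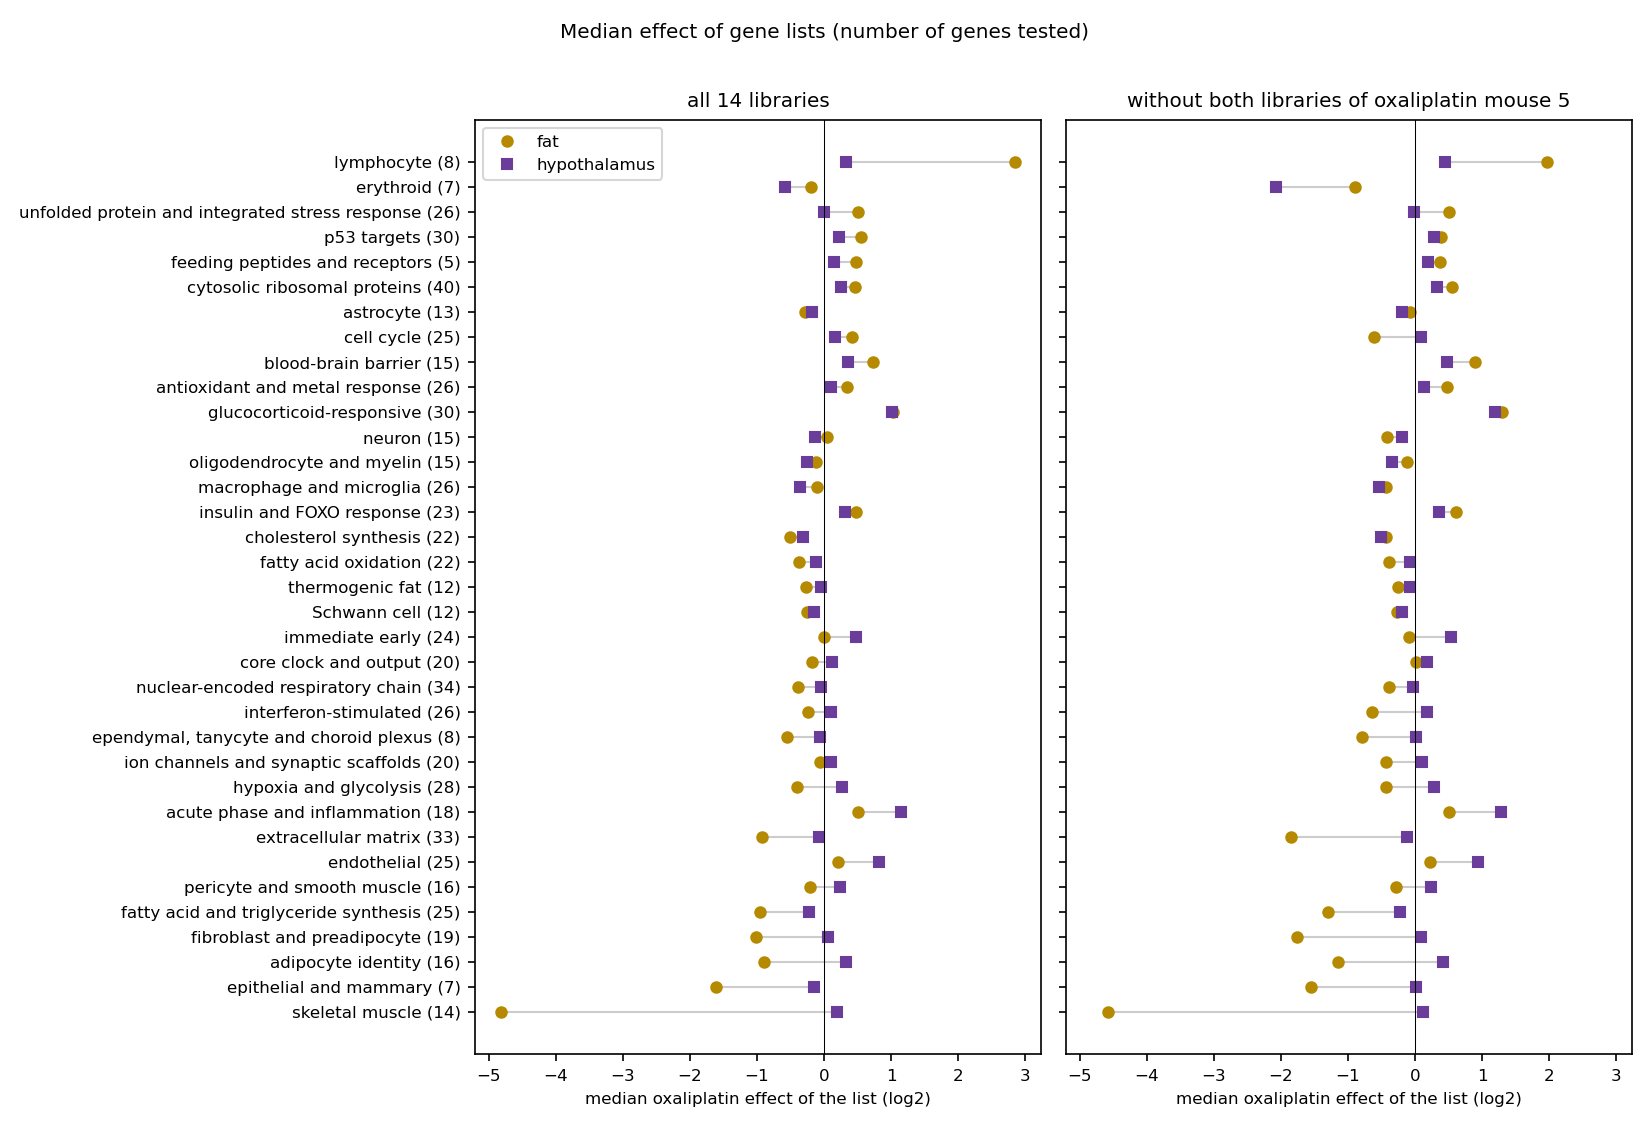
Median oxaliplatin effect (log2) of each gene list with at least 5 tested members, in fat and hypothalamus, with all 14 libraries and without oxaliplatin mouse 5. The endothelial list lies right of 0 in hypothalamus (0.82) and near it in fat (0.20), the glucocorticoid-responsive list right of 0 in both (1.03 in fat and 1.02 in hypothalamus), and the matrix and fibroblast lists left of 0 in fat.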

How the data were processed

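RNA-seq of fat and hypothalamus (7 libraries each) was used. The authors deposited expected counts (estimated reads per gene, not scaled), and the submitters' processing notes list STAR 2.5.1a, Partek and DESeq2. No source used here names the genome build. Gene starts equalled GENCODE M21 (GRCm38) for 99.4% of 22796 shared identifiers. Values with a fraction made up 41.4% of the fat table and 49.1% of the hypothalamus table, and all were rounded. Every row sums to at least 10.

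Genes (16373 of 22868 joined) passed edgeR filterByExpr in each tissue (minimum count 10, minimum total 15). Samples were grouped by title. An edgeR 4.0.16 quasi-likelihood fit (R 4.3.3) over 14 libraries with TMM factors per tissue gave the difference, and p values were adjusted by Benjamini-Hochberg at 0.05. Because fat varies more, tissue effects come from fits of each tissue alone, added after seeing the data, and log2 differences of called genes from these and the joint fit deviate by at most 0.0278. A standard error is the effect over the square root of F. CPM are TMM-scaled, except marker sums and the Adipoq and Snap25 values that check the tissue labels, which use plain library totals. List levels are mean log2 CPM (prior count 2) minus the vehicle mean. The plan assumed whole counts. Promoters and their sequences come from RefSeq: 77 of 99 genes examined had one. The test was also run on simulated data. These had the same measure of spread in both tissues, no link between libraries of a mouse, no mouse apart and changes in fat only. They therefore do not check the test for the present libraries.

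The same animal gave fat and hypothalamus, per the mouse numbers in the titles. Deviations of same-numbered libraries correlated at 0.03 to 0.16 over 7 pairs, and each correlated best with its own number in 4 of 7. Beyond those numbers nothing says that samples are separate animals, so p values measure the spread between these samples. No pair of libraries was a copy (lowest chi-square per degree of freedom 6.84).

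Named genes were the 12 largest differences each way among called genes (mean of at least 1 CPM in an arm of each tissue, no overlap within mice), 4 given markers, up to 4 members per list, and 8 genes each of same and opposite sign. Some genes that this rule takes are not reported here. Chosen after their values were seen were Acvrl1, Cd300lg, Adgrl4, Ly6c1, B3gnt3, Pecam1, Flt1, Vegfa, Cxcl12, Acer2, Gnao1, Ppfia3, Srcin1, Map6, Fgf13, Fgf1, Fam20c, Gramd1b, Lcn2, Cebpd, Cdkn1a, Fkbp5, Dbp, Nfil3, Npas2 and Nr1d1. The members and lists were chosen with earlier results of these data known. Alternatives tried were other scalings, filters, tools, animal blocks and left-out libraries.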

Additional observations from a re-analysis of the deposited data

Results flagged for a closer look

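The test of the difference itself put 52 genes with a fat effect above, and 97 with a fat effect below, the hypothalamus effect. In groups of 4 oxaliplatin libraries, 272 sets of gene or list levels were examined for a library far from the other 3, by the gap to its neighbour over the whole range (critical value 0.829). Chance gives about 1 in 20 such cases, and 19 were found.

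In fat, mouse 5 stood apart for Acvrl1 (0.919), Snap25 (0.863), Rgs2 (0.904), Tmem252 (0.907), Nfkbia (0.906), Col4a1 (0.89) and Col4a2 (0.836), and for the list levels of cytosolic ribosomal proteins (0.856) and cell cycle genes (0.905). Mouse 4 stood apart in fat for Epha2 (0.917). In hypothalamus, mouse 5 stood apart for B3gnt3 (0.877), Lpar2 (0.848) and the endothelial list (0.841). Mouse 2 stood apart there for Plppr4 (0.879), Bhlhe40 (0.851), the clock list (0.839) and the list of the unfolded protein and integrated stress response (0.884). Mouse 3 stood apart there for Gnao1 (0.847) and the list of feeding peptides and receptors (0.899).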

How the results depend on the processing

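The count of 149 genes varied with the settings. It was 121 with TMM over all libraries, 151 with DESeq2 size factors, 115 with upper quartile factors, 196 with limma-voom, 172 with a 1 CPM filter and 126 at a log2 size of at least 1. It was 1213 with DESeq2, 3492 with voom quality weights, 303 with a weight per tissue, 60 with no filter and 83 with a joint filter. With the animal as a block it was 0 in edgeR, 0 in voom and 1094 in DESeq2, and 2495 with the block and mouse 5 left out. It was 22 with the mouse number as a block across arms and 362 with the animal as a random effect (consensus correlation 0.0804). Leaving out 1 library gave 1 to 3186, and leaving out both libraries of a mouse 1 to 3192.

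In the joint fit the fat effect gave 3043 calls, 5685 with quality weights, 1603 with a weight per tissue, 1267 at a log2 size of at least 1 and 0 fitted alone, with 1037 to 5972 without 1 library and 513 to 6120 without both libraries of a mouse. The hypothalamus effect gave 25 calls, 124 with DESeq2, 12 with voom, 537 with quality weights, 49 with the number block and 12 with the random effect, with 4 to 115 without 1 library and 4 to 366 without both libraries of a mouse. Fitted alone and without 1 library, fat gave 0 to 4532 calls (above 0 only without mouse 5) and hypothalamus 0 to 704. The causes were not tested. Of 99 genes examined, 56 differed with all libraries. 1 of the others, Cebpd, changed sign in any setting, to 0.14 with quality weights. Depth limits genes near or below 1 CPM, such as Slc5a7, Unc79 and Sh2d5 in fat and Cd300lg and Klf14 in hypothalamus.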
